A study of Mus musculus with 18 samples.

Results

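BMP and GDF signalling was followed in mouse tail tendon fibroblasts (TFs) through 9 genes. These were the ligands Bmp2, Bmp4, Bmp6, Gdf5 and Gdf6, the extracellular antagonists Grem1 and Chrdl1, and the receptors Bmpr1a and Bmpr2. They were chosen by gene symbol, with earlier results of these data known, and are 9 of the 55491 rows of the count table. All 9 had enough counts to be tested, among 15850 genes in the 12 libraries of Ctrl and cKO TFs and 16174 genes in all 18 libraries.

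Poly-A RNA was sequenced after 4 days in culture in 6 groups of 3 libraries each. Ctrl TFs came from mice that the labels call wild-type and the study's methods Cre-negative, and Cre-negative controls of that cross carry floxed Hif1a alleles. TFs of the cKO groups came from Hif1a flox/flox mice with ScxCre, a recombinase driven by the promoter of the tendon transcription factor Scx, so that cells that never expressed Scx keep Hif1a. A further set of Ctrl TFs received Cre gesicles, vesicles that carry the recombinase into cultured cells. Each of the 3 arms was kept in 20% O2 or in 1% O2. The mice were 4 to 6 months old, of both sexes and of a mixed C57BL6J/129S1 background, and the cells had grown out into collagen gels and been passaged. Gesicles without Cre were not analysed here, so the action of Cre and that of the vesicle cannot be told apart. The labels do not say whether a replicate number stands for 1 mouse, and p-values measure the spread between these libraries.

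Library totals ran from 6857558 counts, in cKO replicate 1 of 1% O2, to 51806453 counts. For Hif1a, the targeted gene, the mean was 348 ± 19.6 CPM (counts scaled to library size, adjusted by the trimmed mean of M-values, TMM) in Ctrl TFs and 377 ± 72.8 CPM in cKO TFs in 20% O2 (SD, n = 3). The genotypes differed by 0.09 on the log2 scale over both O2 levels (SE 0.11, edgeR adjusted p = 0.605). A count over the whole gene does not show the loss of a floxed part, and directions below are those of the libraries labelled cKO. Cre sequence was counted in 5 of the 6 cKO libraries, at 1 to 5 counts, and in none of the other 12. By Xist and Y-linked counts, replicate 1 was male and replicates 2 and 3 were female in the Ctrl and gesicle groups, and the reverse held in the cKO groups. The 9 tendon fibroblast markers (Scx, Tnmd, Mkx, collagens and others) summed to between 7037 and 18282 CPM in every library, while 2 keratinocyte keratins summed to at most 0.158 CPM. Collagens made up most of that marker sum. In Ctrl TFs in 20% O2, Col1a1, Col3a1 and Col1a2 averaged 6333, 3374 and 2922 CPM, and Scx, Mkx and Tnmd 14.9, 29.8 and 40.9 CPM. The muscle progenitor genes Pax7 and Myf5 and the osteoblast gene Ibsp had 0 counts in all 18 libraries, while the 4 muscle markers summed to 1.72 to 7.46 CPM, nearly all Des, and the 4 osteoblast markers to 0.325 to 2.89 CPM. The 4 pericyte and smooth muscle markers, which include Acta2, summed to 1020 to 2185 CPM.

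BMPs and GDFs are secreted ligands of the TGF-β superfamily. They bring together type I receptors such as Bmpr1a and type II receptors such as Bmpr2, which phosphorylate SMAD1, SMAD5 and SMAD9, and these act with SMAD4 on target genes such as the Id genes and the inhibitory Smad6 and Smad7. Gremlin 1 and chordin-like 1 bind ligands outside the cell and keep them from the receptors. In tendon and its bony attachment, Bmp4 is known for the bone ridges to which tendons attach, and Gdf5 and Gdf6 for joint and tendon formation.

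The windows upstream of the start sites of Bmp4 and Grem1 are shown, because both genes passed the threshold in a comparison below and had an entry among the RefSeq promoters (GRCm38.p6), which held 5 of the 9 genes. Gdf5 and Gdf6 had none. Each window holds the 250 bases before the annotated start, read 5′ to 3′ on the minus strand, at chr14:46390670-46390919 for Bmp4 and chr2:113758649-113758898 for Grem1. Capitals mark ACGTG, the core of the hypoxia response element bound by HIF, on either strand.
Bmp4: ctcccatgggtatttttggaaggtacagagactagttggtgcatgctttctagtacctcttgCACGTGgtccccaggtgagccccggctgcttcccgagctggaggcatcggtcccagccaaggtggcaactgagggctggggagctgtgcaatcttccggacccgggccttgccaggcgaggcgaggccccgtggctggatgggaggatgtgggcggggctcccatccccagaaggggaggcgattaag
Grem1: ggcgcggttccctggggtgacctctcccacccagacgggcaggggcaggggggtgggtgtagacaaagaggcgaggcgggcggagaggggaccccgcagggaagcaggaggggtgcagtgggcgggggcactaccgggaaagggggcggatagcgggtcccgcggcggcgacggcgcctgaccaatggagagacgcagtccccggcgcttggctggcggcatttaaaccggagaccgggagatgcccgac
The Bmp4 window held CACGTG, which reads as ACGTG on either strand, and the Grem1 window held neither ACGTG nor the related GCGTG. The window of Bmp6, a gene called in no comparison, also held CACGTG, and GCGTG besides. Those of Bmpr1a and Bmpr2 held neither ACGTG nor GCGTG. Among 32851 windows of the same length, 16.6% held ACGTG, 28.2% held GCGTG and 38.6% held at least 1 of them. These matches describe letters and not sites of binding.

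Per kilobase of exon, Bmpr1a and Grem1 were the most abundant of the 9 and 4 of the 5 ligands were among the least. The length was the union of all annotated exons, 17983 bases for Bmpr2 and 3900 bases for Bmp6. Without this scaling, Bmpr2 averaged 25.7 CPM and Bmp6 26.1 CPM in Ctrl TFs in 20% O2. In Ctrl TFs in 20% O2, Bmpr1a was at 33.1 ± 3.49 CPM per kilobase, Grem1 at 22.6 ± 3.75, Chrdl1 between 7.59 and 8.46 and Bmp6 at 6.69 ± 2.41 (SD, n = 3). Much lower came Bmpr2 at 1.43 ± 0.179, Gdf6 at 1.03 ± 0.762, Bmp2 at 0.764 ± 0.181, Bmp4 at 0.190 ± 0.149 and Gdf5 at 0.0442 ± 0.0318 CPM per kilobase. In this order the replicates of Chrdl1 and Bmp6, of Bmpr2 and Gdf6, of Gdf6 and Bmp2, and of Bmp4 and Gdf5 overlapped, and those of the other neighbours did not. In cKO TFs in 20% O2, Bmp4 was between 0.996 and 2.31 and Bmp2 between 1.26 and 3.12 CPM per kilobase. Gdf5, with 2 to 39 counts per library, had the lowest mean in every group but Ctrl TFs in 1% O2, where Bmp4 was at 0.179 ± 0.149 and Gdf5 at 0.216 ± 0.0517 CPM per kilobase with overlapping replicates.

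**Figure D1:**
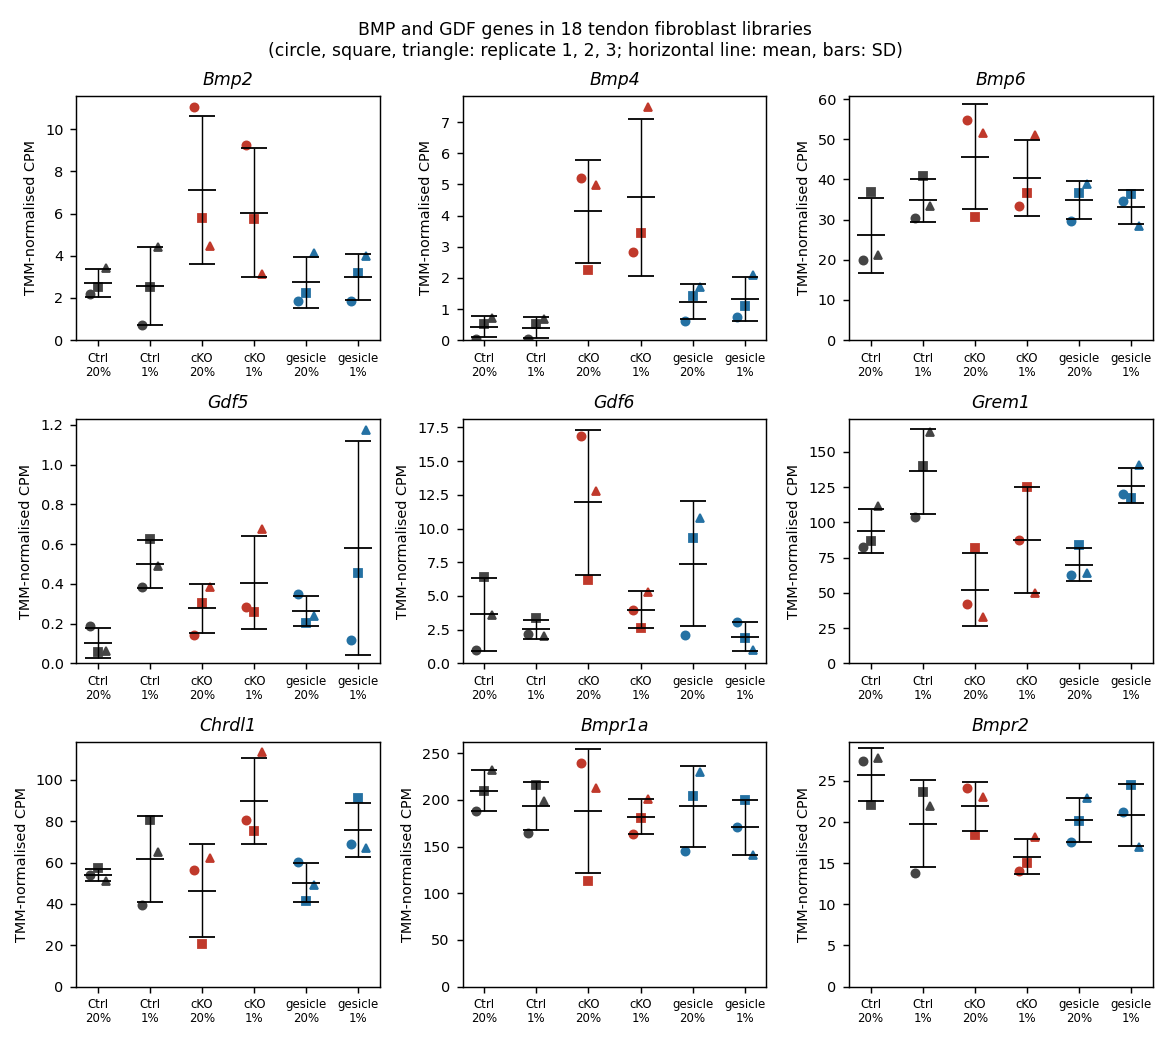
Level of each of the 9 genes (y axis, TMM-normalised CPM, from 0) in the 3 libraries of each group (x axis, arm and % O2), with the mean as a horizontal line and the SD as bars. All 6 Bmp4 values of cKO TFs, from 2.24 to 7.48 CPM, lie above all 6 of Ctrl TFs, and the mean of Grem1 lies higher in 1% than in 20% O2 in each arm.

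A gene was called where the edgeR quasi-likelihood test gave a Benjamini-Hochberg adjusted p below 0.05 over all genes tested and the fold change was at least 1.5. In cKO against Ctrl TFs averaged over both O2 levels, 1 of the 9 genes was called, Bmp4, and it was higher, where 3.78% of all genes were called and 1.1% were called higher. Within 20% O2 none of the 9 was called by edgeR (0.347% of all genes), 6 had an unadjusted p below 0.05 with a 1.5-fold change (8.53% of all genes), and DESeq2 called 2 (2.79% of all genes). Within 1% O2 none was called by edgeR (0.0379% of all genes), with 1 by unadjusted p and fold (9.77%) and 1 by DESeq2 (1.91%). The interaction of genotype and O2 called none of the 9 by edgeR (0% of all genes), by DESeq2 (0.0126%) or by unadjusted p and fold (1.84%). Averaged over O2, DESeq2 called 4 of the 9 (7.65% of all genes), namely Bmp2, Bmp4, Gdf6 and Grem1. Bmp4 was the gene counted within 1% O2, and Bmp4 and Gdf6 were those that DESeq2 called in 20% O2.

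For 1% against 20% O2, edgeR called none of the 9 in Ctrl TFs (1.88% of all genes), none in cKO TFs (2.1%) and none in gesicle-treated TFs (2.41%), with 1, 2 and 2 by unadjusted p with a 1.5-fold change (9.44%, 11.6% and 9.41% of all genes). DESeq2 called 1 in each arm, which was Gdf5 in Ctrl TFs (4.39% of all genes) and Gdf6 in cKO (5.63%) and gesicle-treated TFs (4.53%). In Ctrl TFs, where libraries of the same number correlate, DESeq2 with the replicate block called none of the 9, with adjusted p = 0.0673 for Gdf5. When the O2 difference was averaged over the 3 arms, a comparison added after the data were seen, 3 of the 9 were called (10.5% of all genes). Gdf5 and Grem1 were higher in 1% O2 and Gdf6 was lower. Gesicle-treated against untreated Ctrl TFs called none of the 9 in 20% O2 by edgeR (0.0247% of all genes), DESeq2 (0.284%) or unadjusted p and fold (2.41%). In 1% O2 none was called by edgeR (0%) or DESeq2 (0%), and 1, Bmp4, passed by unadjusted p and fold (1.45%). Averaged over O2, also added afterwards, none was called by edgeR (0.0495%) or DESeq2 (0.47%).

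Counted by groups whose 3 libraries do not overlap, Bmp2 and Bmp4 were higher and Grem1 lower in cKO than in Ctrl TFs in 20% O2, which held for 21.2% of all genes, and Bmp4 was higher in 1% O2 (27.3% of all genes). In 1% against 20% O2, Gdf5 separated the groups of Ctrl TFs (30% of all genes), Chrdl1, Gdf6 and Bmpr2 those of cKO TFs (20.6%), and Grem1 and Chrdl1 those of gesicle-treated TFs (24%). Gesicle-treated and untreated Ctrl TFs were separated by Gdf5 in 20% O2 (12.5% of all genes) and by Bmp4 in 1% O2 (6.32%). The shares of members were 3 of 9, 1 of 9, 1 of 9, 3 of 9, 2 of 9, 1 of 9 and 1 of 9 in that order.

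**Figure D2:**
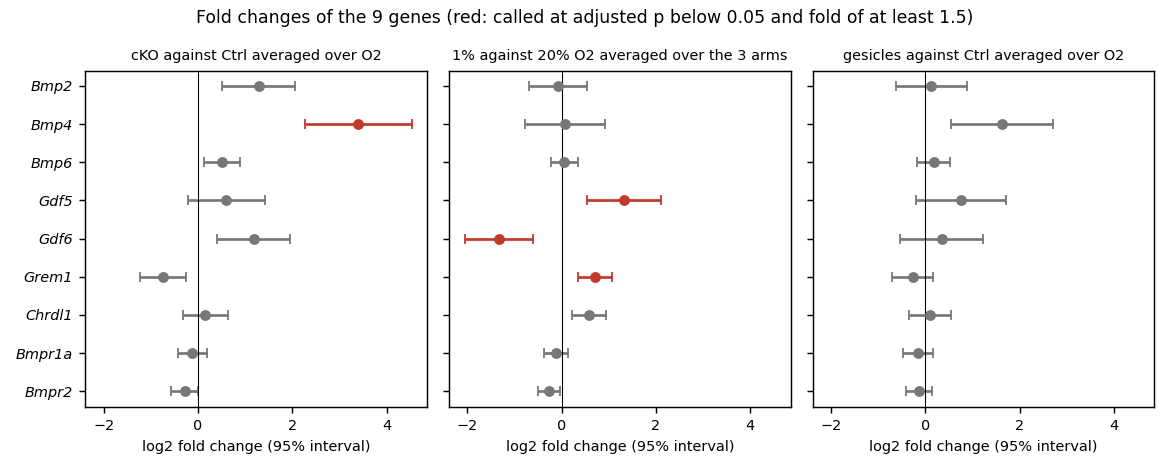
Log2 fold change (x axis) of each gene (y axis) with its 95% interval, for cKO against Ctrl TFs averaged over O2, 1% against 20% O2 averaged over the 3 arms, and gesicle-treated against untreated Ctrl TFs averaged over O2. Red points were called: Bmp4 at 3.40 in the first panel, and Gdf5 at 1.32, Gdf6 at -1.34 and Grem1 at 0.71 in the second.

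Bmp4 lies at chr14:46383520-46390669 on the minus strand (GRCm38, GENCODE M21), where Gm15217 and Gm15222 overlap it on the plus strand. In Ctrl TFs it had 2, 18 and 23 counts in 20% O2 (0.0536, 0.531 and 0.699 CPM) and 1, 17 and 26 counts in 1% O2 (0.0276, 0.506 and 0.674 CPM). In cKO TFs it was at 5.20, 2.24 and 4.98 CPM in 20% O2 and at 2.84, 3.42 and 7.48 CPM in 1% O2. Every library labelled cKO thus lay above every Ctrl library. Group means in 20% O2 were 0.428 ± 0.335 and 4.14 ± 1.65 CPM for Ctrl and cKO TFs (SD, n = 3). The log2 fold change averaged over O2 was 3.40 (SE 0.58, edgeR adjusted p = 0.0123), a fold of 10.5.

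Within 20% O2 the log2 fold change of Bmp4 in cKO against Ctrl TFs was 3.27 (SE 0.81, edgeR adjusted p = 0.123) and within 1% O2 it was 3.52 (SE 0.82, edgeR adjusted p = 0.172), neither of them called, while DESeq2 gave adjusted p = 0.00277 and 0.00161. The averaged call was lost when libraries of the same arm and number were summed over O2, which left 3 against 3 (log2 fold change 3.45, edgeR adjusted p = 0.125). In males, the Ctrl libraries were at 0.0536 and 0.0276 CPM and the cKO libraries at 2.24 to 7.48 CPM. In females, the Ctrl libraries were at 0.506 to 0.699 CPM and the cKO libraries at 5.20 and 2.84 CPM. With sex as a term, chosen after seeing the data, the averaged log2 fold change was 4.00 (edgeR adjusted p = 0.0129). The 3 Schwann cell markers summed to 0.469 to 1.55 CPM in Ctrl and 1.43 to 2.37 CPM in cKO libraries, and their part in the Bmp4 difference was not tested. As in any bulk sample, fewer cells of a type and less RNA per cell cannot be told apart.

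Bmp4 showed no called O2 response. The log2 difference between 1% and 20% O2 was -0.06 in Ctrl (95% interval -1.74 to 1.62), 0.19 in cKO (-1.20 to 1.58) and 0.09 in gesicle-treated TFs (-1.32 to 1.49), so that a 2-fold change either way lies within each interval. In gesicle-treated TFs, Bmp4 was at 0.602, 1.40 and 1.72 CPM in 20% O2 and at 0.755, 1.10 and 2.11 CPM in 1% O2. The groups overlapped the untreated ones in 20% O2 and not in 1% O2. Averaged over O2, the log2 fold change of gesicle-treated against untreated Ctrl TFs was 1.62 (SE 0.55, edgeR adjusted p = 0.764). Libraries of the same number correlated across these groups in their deviations from the group means, and paired by number the gesicle-treated library was higher in 6 of 6 pairs. The ratios were 2.17 to 3.13 for numbers 2 and 3. For number 1 they were 11.2 (95% counting interval 2.81 to 97.7) and 27.3 (4.49 to 1121), resting on 2 counts and 1 count in the untreated library. With the replicate block, DESeq2 called Bmp4 in 20% O2 (adjusted p = 0.0391), in 1% O2 (0.0418) and averaged (2.22e-05), whereas edgeR with the block did not (adjusted p = 0.563, 1 and 0.128).

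Bmp2, the ligand closest to Bmp4 in sequence and like it a bone-inducing factor, lies at chr2:133552159-133562885 (plus strand). Ctrl libraries in 20% O2 held 2.20, 2.51 and 3.44 CPM and cKO libraries 11.1, 5.80 and 4.46 CPM, without overlap. In 1% O2, Ctrl libraries held 0.717, 2.53 and 4.40 CPM and cKO libraries 9.24, 5.73 and 3.15 CPM, and the groups overlapped. The log2 fold change averaged over O2 was 1.28 (SE 0.40, edgeR adjusted p = 0.0731) and was not called, but DESeq2 called it (adjusted p = 0.0104). Replicate 1 was the highest cKO library at both O2 levels and was the female one. Over both O2 levels, gesicle-treated TFs, at 1.86 to 4.12 CPM, lay within the range of untreated TFs. In 20% O2 alone they ran from 1.88 to 4.12 CPM, beyond the untreated libraries at both ends.

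Bmp6, per kilobase the most abundant of the 5 ligands and one known for iron control and cartilage, lies at chr13:38345107-38500302 (plus strand), where it overlaps Txndc5 on the other strand. It ran from 20.05 to 36.9 CPM in Ctrl TFs and from 30.7 to 54.8 CPM in cKO TFs in 20% O2. In 1% O2 the ranges were 30.4 to 40.8 and 33.4 to 51.2 CPM. The groups overlapped in both. Over both O2 levels the genotypes differed by 0.51 on the log2 scale (SE 0.19, edgeR adjusted p = 0.115). Gesicle-treated TFs were at 28.4 to 38.8 CPM.

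Gdf5, a ligand of joint and tendon formation, lies at chr2:155941023-155945367 (minus strand) with Gm15557 on the other strand, and its counts were low. In Ctrl TFs it had 7, 2 and 2 counts in 20% O2 and 14, 21 and 19 counts in 1% O2, and the groups did not overlap at 0.0590 to 0.188 and 0.386 to 0.625 CPM. The log2 difference was 2.23 (SE 0.61, edgeR adjusted p = 0.0916), DESeq2 gave adjusted p = 0.0497 without and 0.0673 with the replicate block, and the same-number ratio was 2.06 for number 1 (95% counting interval 0.778 to 6.03). The ratios for numbers 2 and 3, each resting on 2 counts in 20% O2, were 10.6 (95% counting interval 2.59 to 93.2) and 8.09 (1.95 to 71.7). In cKO TFs it had 4, 12 and 17 counts in 20% O2 and 2, 9 and 27 counts in 1% O2. In gesicle-treated TFs it had 15, 9 and 12 counts, and 4, 14 and 39 counts. Averaged over the 3 arms the log2 difference was 1.32 (SE 0.40, edgeR adjusted p = 0.0239), and 7 of 9 same-number pairs were higher in 1% O2. This call was lost without Ctrl replicate 2 (adjusted p = 0.0557) or 3 (0.0521) of 20% O2, and without replicate 3 of cKO (0.0781) or gesicle-treated TFs (0.0744) of 1% O2. Ctrl and gesicle-treated libraries of the same number correlated, so the 9 pairs may not be independent, here and for the genes below. The fit over the arms treated all 18 libraries as independent.

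Gdf6, a close relative of Gdf5, lies at chr4:9844372-9862345 (plus strand) and moved the other way with O2. It was at 16.8, 6.18 and 12.8 CPM in cKO TFs in 20% O2 and at 3.98, 2.59 and 5.33 CPM in 1% O2, and the groups did not overlap (log2 difference -1.58, SE 0.56, edgeR adjusted p = 0.153). In gesicle-treated TFs it was at 2.11, 9.28 and 10.8 CPM and then at 3.08, 1.91 and 0.993 CPM (log2 difference -1.89, SE 0.65, edgeR adjusted p = 0.136). In untreated Ctrl TFs it was at 0.992, 6.38 and 3.56 CPM and then at 2.18, 3.34 and 2.05 CPM. Replicate 1, the male one, was the lowest library of 20% O2 in the Ctrl and gesicle groups, and was higher in 1% O2 in both. In cKO TFs the male replicates 2 and 3 were lower in 1% O2, at 6.18 and then 2.59 CPM and at 12.8 and then 5.33 CPM. Averaged over the arms, Gdf6 fell by 1.34 on the log2 scale in 1% O2 (SE 0.37, edgeR adjusted p = 0.0156), with 7 of 9 pairs lower.

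Between genotypes, Gdf6 averaged 11.9 ± 5.38 CPM in cKO and 3.64 ± 2.69 CPM in Ctrl TFs in 20% O2 (SD, n = 3), with overlapping groups. The log2 fold change averaged over O2 was 1.18 (SE 0.39, edgeR adjusted p = 0.0841), not called, and DESeq2 called it (adjusted p = 0.0182). The 4 endothelial markers, whose sum was nearly all Tek, moved with O2 as Gdf6 did, at 25.8 to 76.6 CPM in 20% and 11.5 to 40.0 CPM in 1% O2. Pecam1, Cdh5 and Kdr stayed at or below 0.291, 0.650 and 0.643 CPM, and their part in the Gdf6 difference was not tested.

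**Figure D3:**
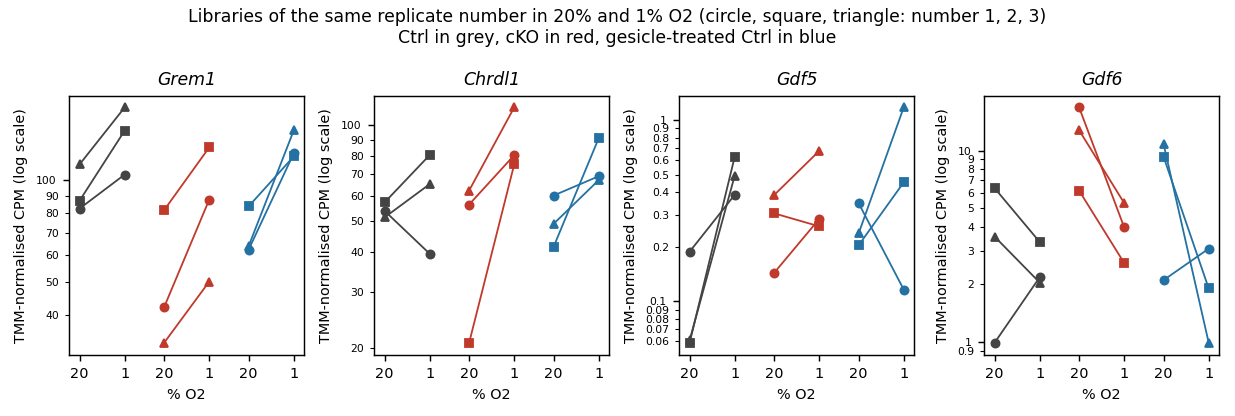
Grem1, Chrdl1, Gdf5 and Gdf6 (y axes, TMM-normalised CPM on a log scale) in 20% and 1% O2 (x axis), with lines that join libraries of the same arm and replicate number. All 9 lines of Grem1 rise and 8 of 9 of Chrdl1 rise, while 7 of 9 of Gdf6 fall.

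Grem1, an antagonist that binds Bmp2 and Bmp4, lies at chr2:113746164-113758646 (minus strand). In Ctrl TFs it was at 82.6, 87.1 and 111.5 CPM in 20% O2 and at 104.0, 140.3 and 164.3 CPM in 1% O2. In cKO TFs it was at 42.2, 81.7 and 33.1 CPM and then at 87.7, 125.1 and 50.2 CPM, and in gesicle-treated TFs at 62.5, 83.8 and 64.0 CPM and then at 120.1, 117.6 and 140.4 CPM. It was higher in 1% O2 in 9 of 9 same-number pairs, by 1.26 to 2.20 times, though Ctrl and gesicle-treated pairs of the same number may not be independent. Within an arm the log2 difference was 0.55 in Ctrl (edgeR adjusted p = 0.496), 0.75 in cKO (0.267) and 0.85 in gesicle-treated TFs (0.172), none called, and averaged over the arms it was 0.71 (SE 0.18, edgeR adjusted p = 0.0111). Without cKO replicate 2 of 1% O2 the averaged value was 0.58, under the 1.5-fold minimum.

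In 20% O2 all 3 cKO libraries lay below all Ctrl libraries in Grem1, and in 1% O2 the groups overlapped. The log2 fold change averaged over O2 was -0.74 (SE 0.25, edgeR adjusted p = 0.0882), which was not called, whereas DESeq2 called it (adjusted p = 0.0259). Without cKO replicate 2 of 20% O2, the highest of its group, edgeR called it as well (-0.98, adjusted p = 0.0379).

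Chrdl1, a second secreted antagonist, lies on the X chromosome at chrX:143285674-143394262 (minus strand). In cKO TFs it was at 56.3, 20.7 and 62.3 CPM in 20% O2 and at 80.5, 75.3 and 113.7 CPM in 1% O2, without overlap (log2 difference 0.96, SE 0.35, edgeR adjusted p = 0.165). In gesicle-treated TFs the means were 50.2 ± 9.36 CPM in 20% and 75.8 ± 13.2 CPM in 1% O2 (SD, n = 3), also without overlap and not called (edgeR adjusted p = 0.363). In Ctrl TFs the values were 51.3 to 57.2 and 39.4 to 80.5 CPM. Averaged over the arms the log2 difference was 0.58 (SE 0.19, edgeR adjusted p = 0.0338), a fold of 1.49 that lies just under the minimum, and it was called in 11 of 26 alternatives (log2 difference 0.46 to 0.66). Genotype gave a log2 fold change of 0.16 (95% interval -0.33 to 0.64).

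None of the receptors was called. Bmpr1a, a type I receptor, lies at chr14:34410734-34503341 (minus strand) and ran from 114 to 240 CPM over all 18 libraries. Its log2 fold change was -0.12 for cKO against Ctrl TFs (95% interval -0.43 to 0.18), -0.12 for 1% against 20% O2 over the arms (-0.38 to 0.14) and -0.15 for gesicles (-0.46 to 0.17). Each of these intervals lies within a 1.5-fold change. Bmpr2, the type II receptor, lies at chr1:59763400-59879014 (plus strand) and ran from 13.7 to 27.7 CPM. It was at 24.1, 18.5 and 23.0 CPM in cKO TFs in 20% O2 and at 14.1, 15.0 and 18.1 CPM in 1% O2 (log2 difference -0.46, SE 0.20, edgeR adjusted p = 0.24). Averaged over the arms the difference was -0.27 (SE 0.12, edgeR adjusted p = 0.103).

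SMAD mediators and target genes were followed through 16 genes, all of them tested. In 20% O2, 4 were called and lower (0.347% of all genes called), and 9 with DESeq2 (2.79%). It was 7 when low counts were not filtered (281 of 28539 genes) and 2 with a sex term (57 of 15850 genes), all lower. None was above 0, and the median log2 fold change was -1.31, beside 0.03 over all genes. In 1% O2 none was called by edgeR (0.0379% of all genes) and 3 had an unadjusted p below 0.05 with a 1.5-fold change (9.77%). There DESeq2 called 2 (1.91%), both lower, and the median was -0.41 beside 0.003. Averaged over O2, 8 were called and lower (3.78% of all genes called), with a median of -0.87 beside 0.02. Atoh8, a transcription factor induced by BMPs, averaged 80.7 ± 21.6 CPM in Ctrl TFs and 6.77 ± 2.67 CPM in cKO TFs in 20% O2 (SD, n = 3), and 63.8 ± 23.5 and 25.5 ± 4.34 CPM in 1% O2. Over both O2 levels it fell by 2.45 on the log2 scale (SE 0.24, edgeR adjusted p = 0.00117). The inhibitory Smad6 fell by 1.51 (edgeR adjusted p = 0.0046) and Smad7 by 1.29 (0.00362) on the log2 scale, and Id1, a direct BMP target, by 1.23 (0.0185). The others called were Id2, Id3, Msx2 and Runx2. With sex as a term 5 of the 16 were called averaged over O2 (336 of all genes), and with libraries summed over O2 it was 2 (25 of all genes). Leaving out 1 library gave 3 calls (without Ctrl replicate 1 of 20% O2, 137 of all genes) to 10 averaged over O2. The 10 came without Ctrl replicate 1 of 1% O2 (738 of all genes) or cKO replicate 1 of 20% O2 (1531). Averaged over O2, 4 or 5 were left without Ctrl or cKO replicate 3 of 20% O2, Ctrl replicate 2 or 3 of 1% O2, or any cKO replicate of 1% O2 (169 to 353 of all genes). Within 20% O2 the calls ran from 1 to 5 (1 to 154 of all genes). There, 1 was left without Ctrl replicate 1 or 3 or cKO replicate 3 (1, 10 and 1 of all genes) and 2 without Ctrl replicate 2 (42).

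**Figure D4:**
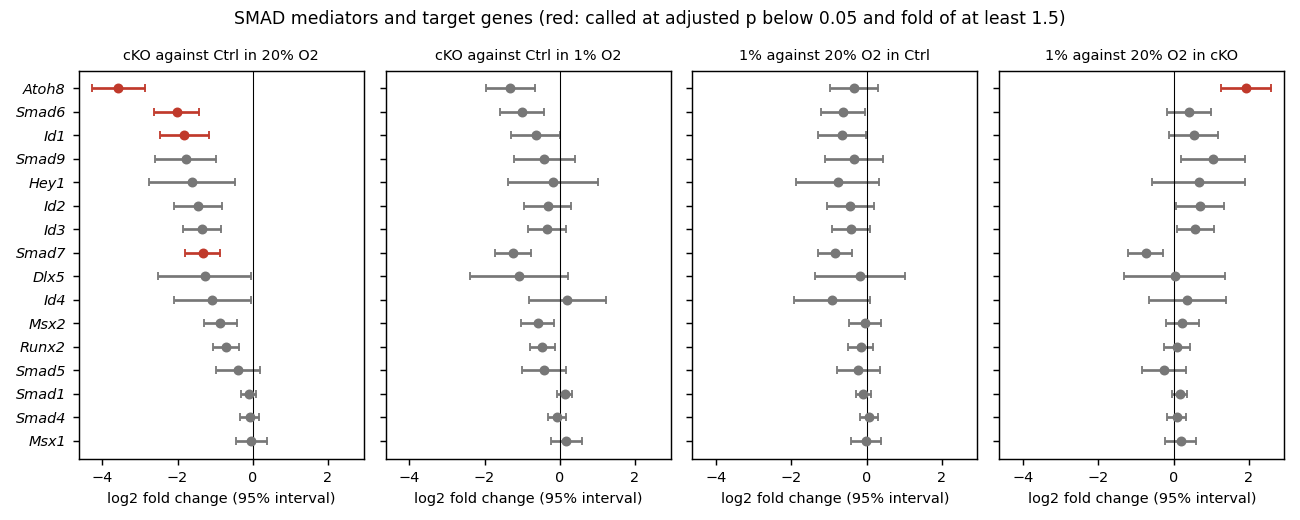
Log2 fold change (x axis) with its 95% interval of the 16 SMAD mediators and target genes (y axis), for cKO against Ctrl TFs in 20% and in 1% O2 and for 1% against 20% O2 in Ctrl and in cKO TFs. In 20% O2 all 16 lie below 0 and 4 are called, and in the last panel Atoh8 alone is called, at 1.93.

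With O2 none of the 16 was called by edgeR in Ctrl TFs (1.88% of all genes), 1 passed by unadjusted p with a 1.5-fold change (9.44%), and the median was -0.33. In cKO TFs Atoh8 alone was called (2.1% of all genes), higher in 1% O2 (log2 difference 1.93, SE 0.34, edgeR adjusted p = 0.0149). The interaction was not called for Atoh8 (2.26, 95% interval 1.34 to 3.18, edgeR adjusted p = 1), and 6 of the 16 passed by unadjusted p and fold (1.84% of all genes). Against untreated TFs, gesicle-treated TFs had none of the 16 called by edgeR in 20% or 1% O2 (0.0247% and 0% of all genes). None passed by unadjusted p with a 1.5-fold change (2.41% and 1.45%), and the medians were -0.28 and 0.25.

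Of 19 other extracellular antagonists and modulators, 14 were tested in cKO against Ctrl TFs. Nog, which encodes the antagonist noggin, was called lower averaged over O2 (log2 fold change -1.19, SE 0.29, edgeR adjusted p = 0.0403), where 3.78% of all genes were called. In 20% O2 it was at 5.34 to 12.5 CPM in Ctrl and 2.21 to 2.69 CPM in cKO TFs. The groups overlapped in 1% O2, at 1.61 to 3.93 and 1.27 to 2.27 CPM. The list's median was -0.06, beside 0.02 over all genes. For O2 averaged over the arms, 15 were tested, Nog was called lower (-0.95) and the protease gene Htra1 higher (0.91), where 10.5% of all genes were called.

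Of 19 other BMP and GDF ligands, 10 were tested and none was called by edgeR in cKO against Ctrl TFs averaged over O2 (3.78% of all genes). By unadjusted p with a 1.5-fold change 1 passed (11.2% of all genes). In 1% against 20% O2, Inhbb, an activin subunit, was called higher in Ctrl TFs, from 48.3 ± 7.25 to 109.8 ± 6.04 CPM (SD, n = 3; log2 difference 1.19, SE 0.20, edgeR adjusted p = 0.00862). For O2 in Ctrl TFs 1.88% of all genes were called. Over the 3 arms 4 were called (10.5% of all genes), with Inhbb (0.80), the stress-induced Gdf15 (1.28) and Gdf9 (0.75) higher and Bmp8a (-0.95) lower. Of 12 other receptors and co-receptors tested, 1 was called, Neo1 (neogenin), which was lower in cKO TFs averaged over O2 (-1.12, SE 0.23, edgeR adjusted p = 0.0245). That comparison called 3.78% of all genes. The calls of Nog and Neo1 were not rechecked with libraries summed over O2, where 25 of all genes were called.

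Over the 18 libraries, which share arms and so are not independent, the closest pair of the 9 was Bmp2 and Bmp4 (Pearson r = 0.76 of log2 CPM) and the most opposed was Gdf6 and Grem1 (r = -0.68). The 2 genes most like each member among the 16174 tested were Fgf5 (r = 0.89) and Casp12 (0.89) for Bmp4, Fbln7 (0.90) and Gas2 (0.89) for Bmp2, and Socs3 (0.88) and Best1 (0.84) for Bmp6. For Gdf5 they were Nelfa (0.78) and Rsph3a (0.76), and for Gdf6 Egfr (0.88) and Entpd1 (0.88). Grem1 was most like Rab27b (0.92) and Hspb7 (0.88), and Chrdl1 most like Zfp322a (0.88) and Zfp869 (0.86). Bmpr1a was most like Rmnd5a (0.93) and 2510009E07Rik (0.93), and Bmpr2 most like Mbd5 (0.92) and Ctdsp2 (0.92). These values describe the libraries and carry no test.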

How the data were processed

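The authors trimmed reads with cutadapt 4.8, mapped them to GRCm38 with STAR 2.7.8a and estimated counts per gene with RSEM 1.3.3. The deposited estimated counts are whole numbers, not normalized, for 55491 rows. The strand setting of the counting is not given in the sources used here, so genes that overlap a neighbour may share its reads. The labels give 10% serum and the study's text 1%. Groups came from the labels. The filter on low counts was filterByExpr, and the test was the quasi-likelihood F test of edgeR 4.0.16 after TMM scaling, with a mean for each group. Ctrl and cKO TFs were compared in a model of their 12 libraries, and a model of all 18 libraries served comparisons with gesicle-treated TFs or over the 3 arms. Printed levels use the TMM factors of all 18 libraries. Standard errors are the log2 fold change over the square root of F, and 95% intervals are normal. These intervals are narrower than the F test implies, so that some leave out 0 at an unadjusted p above 0.05. For Bmpr2 in cKO against Ctrl TFs averaged over O2 the interval was -0.562 to -0.00119 (edgeR unadjusted p = 0.0722). Counting intervals (exact binomial, 95%) cover counting error only. Alternatives were DESeq2 1.42.0, the replicate block, other filters and size factors, and each library left out. Same-number libraries correlated in their deviations (every pair above 0.1) between 20% and 1% O2 in Ctrl TFs (0.258, 0.290 and 0.431) and between gesicle-treated and untreated Ctrl TFs at 20% (0.331 to 0.431) and 1% O2 (0.169 to 0.261). Across O2 the values were also above 0 in cKO (0.103, 0.0885 and 0.335) and gesicle-treated TFs (0.0618, 0.205 and 0.0109), but not all above 0.1. Between genotypes they were -0.146 to -0.0468 in 20% and -0.00185 to 0.207 in 1% O2. The scripts were tested on simulated data. The 9 genes and the pathway and marker lists were chosen with earlier results of these data known. Named genes are the 9, Hif1a, up to 4 genes per pathway list with the smallest adjusted p (Id2, Id3, Msx2 and Runx2 fall outside it and were added with their values known), and the 2 genes most correlated with each of the 9. R 4.3.3 and Python 3.11.15 were used. Some results of the antagonist and marker lists are not reported here.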

Additional observations from a re-analysis of the deposited data

How the results depend on the processing

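The number of the 9 genes called depended on the tool. With DESeq2 it was 1 for O2 in Ctrl, 1 in cKO and 1 in gesicle-treated TFs (0 with edgeR in each), 2 for genotype in 20% O2 and 1 in 1% O2 (0 with edgeR), and 4 averaged over O2 (1 with edgeR). Over all genes DESeq2 called 696, 892, 732, 443, 302 and 1213 in these comparisons and edgeR 298, 333, 390, 55, 6 and 599. With no filter on low counts these last 3 member counts were 1, 1 and 4 (281, 111 and 1190 of all genes), and with a sex term the averaged count was 2 (Bmp2 and Bmp4; 336 of all genes). With libraries summed over O2 it was 0 (25 of all genes). In paired fits with the replicate block, edgeR called 1 gene (Grem1) for O2 in cKO and 1 (Grem1) in gesicle-treated TFs (444 and 774 of all genes). In these arms the same-number correlations across O2 were above 0 but not all above 0.1. DESeq2 with the block called 3 for O2 in cKO and 2 in gesicle-treated TFs (1076 and 1234 of all genes). In the genotype comparisons the block joined Ctrl and cKO libraries of the same number, which are different mice of opposite sex. There DESeq2 with the block called 2 in 20% O2, 1 in 1% O2 and 4 averaged (473, 291 and 1243 of all genes). For gesicles it called 1 (Bmp4) in 20% O2, in 1% O2 and averaged (74, 10 and 122 of all genes). For O2 in Ctrl TFs it called 0 (962 of all genes), so that the call of Gdf5 by DESeq2 was lost. Over the 3 arms the block added Chrdl1, which was called in 11 of 26 alternatives. With the block, edgeR called 1947 and DESeq2 2129 of all genes over the arms. A fit of the 12 Ctrl and gesicle libraries called 1 gene (Grem1) for O2 in gesicle-treated TFs (529 of all genes). Leaving out 1 library gave 0 to 1 calls for O2 in cKO (98 to 1373 of all genes). The 1 was Grem1 without replicate 2 of 20% O2, where 1373 of all genes were called. For averaged genotype, leaving out 1 library gave 1 to 2 calls (137 to 1531 of all genes). It turned the direction of small Bmp4 differences, which ranged from -0.68 to 0.49 for O2 in Ctrl, -0.36 to 0.42 in cKO, -0.46 to 0.39 in gesicle-treated TFs, -0.15 to 0.24 over the arms and -0.30 to 0.88 for the interaction. Bmp4 averaged over O2 was called in 21 of 22 alternatives (log2 fold change 3.11 to 4.00). The call was lost where libraries of the same arm and number were summed over O2 (edgeR adjusted p = 0.125). The other alternatives all counted the 20% and 1% O2 libraries of an arm as separate, so that they share this limit. The cause of these changes was not tested. Requiring more than 1 CPM in 3 libraries removed Gdf5. Depth limits Bmp4 in Ctrl TFs and Gdf5, with 3 counts or fewer in some libraries.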
